A study of Mus musculus with 3 samples.

Results

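Classical type I interferon-stimulated genes were followed in the hippocampus of adult male mice born to older or to young mothers. The 9 genes are *Stat2*, *Irf9*, *Irf7*, *Ifit1*, *Ifit2*, *Ifit3*, *Oasl2*, *Isg15* and *Usp18*, and the array probes were matched to them by gene name. Every probe carrying 1 of these names on the arrays was taken, which gave 10 probes for the 9 genes among 39429 probes in all. *Isg15* had 2 probes and each of the other genes had 1. All 10 probes passed the filter on dim signals, which kept 27629 probes and 17963 named genes. In the older-mother channel, 8 of the 10 probes were well above background on all 3 arrays. The *Irf7* probe and the dimmer *Isg15* probe were above background in the young-mother channel only.

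The advanced maternal age (AMA) group held sons of females aged 15 to 18 months, and the control group (YMA) held sons of females aged 3 months. Fathers were virgin males aged 3 months in both groups, and the sons were killed by cervical dislocation at postnatal day 120. Each group had 3 pools, and a pool combined equal amounts of hippocampal RNA from 3 males. Each of 3 two-colour Agilent arrays compared 1 older-mother pool, labelled with Cy3, with 1 young-mother pool, labelled with Cy5. Dye and group therefore cannot be told apart, and neither can fewer cells of a type and less RNA per cell. Values are log2 ratios of older over young mothers, so a negative value means a lower signal in the sons of older mothers.

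Type I interferons bind the IFNAR1 and IFNAR2 receptor chains, and the attached kinases JAK1 and TYK2 then phosphorylate STAT proteins. STAT2 and IRF9 are subunits of the complex ISGF3, which binds interferon-stimulated response elements in the promoters of its target genes. In the brain, glial, endothelial and neuronal cells can all respond in this way, and a low tonic signal keeps many of these genes transcribed without infection.

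Of the 8 genes with a window in the RefSeq promoter table (GRCm38.p6), 4 carried a match to the core of that element near their start. Their stretches are shown because this is the kind of sequence that ISGF3 is known to bind. The window ran from 250 bases before to 50 bases after the start, and 8 of the 9 genes had at least 1 window. *Usp18* had no window there, so its promoter was not searched. *Ifit2* and *Irf9* had 2 windows each. The search was for GAAANNGAAA and its reverse complement TTTCNNTTTC, with overlapping matches counted separately, and capitals mark the matches in the stretches, which are written 5′ to 3′ on the strand of the gene.
*Ifit1*, chr19:34640760-34640838, plus strand: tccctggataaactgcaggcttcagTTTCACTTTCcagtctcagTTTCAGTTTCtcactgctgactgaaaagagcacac
*Ifit3*, chr19:34583348-34583441, plus strand: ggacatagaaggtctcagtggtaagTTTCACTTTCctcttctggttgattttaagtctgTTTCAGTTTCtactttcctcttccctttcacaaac
*Isg15*, chr4:156200850-156200921, minus strand: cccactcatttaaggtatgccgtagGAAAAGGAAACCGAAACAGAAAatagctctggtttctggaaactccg
*Stat2*, chr10:128270251-128270310, plus strand: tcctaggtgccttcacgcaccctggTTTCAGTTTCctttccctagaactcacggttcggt

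The *Ifit1* window held 2 matches, starting 104 and 85 bases before the transcription start, and the *Ifit3* window held 2, starting 156 and 122 bases before it. In *Isg15*, 3 matches overlapped, the outermost starting 78 bases before the start, and in *Stat2* a single match began 222 bases before it. These letters were not in the windows of *Ifit2*, *Irf7*, *Irf9* or *Oasl2*. Of all 32851 windows in the table, 3.44% held a match and 0.225% held 2 or more, and 3.99% of its genes had a match. Matches describe the letters of the windows and are not measured binding sites. *Irf7* and *Oasl2*, the 2 genes called lower in the arrays, were not among the 4 with a match, and a link between matches and calls was not tested.

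**Figure D1:**
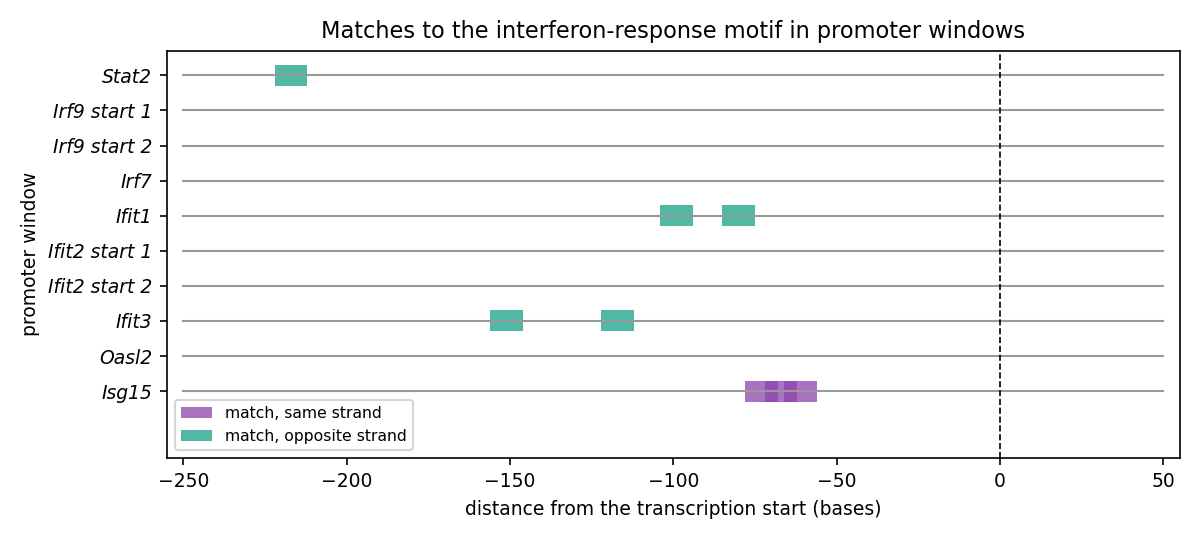
Position of each match to the interferon-response core, in bases from the transcription start (horizontal axis), in the 10 RefSeq promoter windows of 8 of the genes (1 row per window); marks show matches on the strand of the gene or the opposite strand. Matches lie in the windows of Ifit1, Ifit3, Isg15 and Stat2, and the other windows are empty.

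The 9 genes did not move as a block. *Irf7* and *Oasl2* were called lower in the sons of older mothers, and 7 genes did not pass the test (limma, adjusted p under 0.05 over all 27629 kept probes). The counts were 2 of 9 genes called lower, beside 12.2% of all 17963 genes, and 0 of 9 called higher, beside 7.34%. The *Irf7* probe passed the filter through the young-mother channel alone, so its call rests on an older-mother signal not well above background. At an unadjusted p under 0.05, limma gave 3 of the genes a lower and 1 a higher value. Of all 17963 genes, 4370 had a lower and 2721 a higher value at that threshold. The median log2 ratio of the 9 genes was -0.14, beside -0.03 over all genes, and by array it was -0.25, -0.09 and -0.0046. Without array 1 the median was -0.05. Without array 3, limma called none of the 9 genes, and of all kept probes it called 0 lower and 29 higher, with 4822 lower and 3599 higher at an unadjusted p under 0.05. With median centring in place of loess, which moved the median of all kept probes from -0.02 to -0.33, 5 of the 9 genes were called lower and 4 higher. Of all 27629 kept probes, 17004 were called lower and 5995 higher there. Mean ratios lay below 0 for 8 of the 9, beside 57.2% of all genes, and *Irf9* was the exception. Ratios were below 0 on all 3 arrays for *Isg15*, *Irf7*, *Stat2* and *Oasl2*, beside 36.3% of all genes. A value above 0 on all 3 arrays was seen for *Irf9* alone, beside 24.3% of all genes. At this size, 2 calls among 9 genes do not set the group apart from the background.

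**Figure D2:**
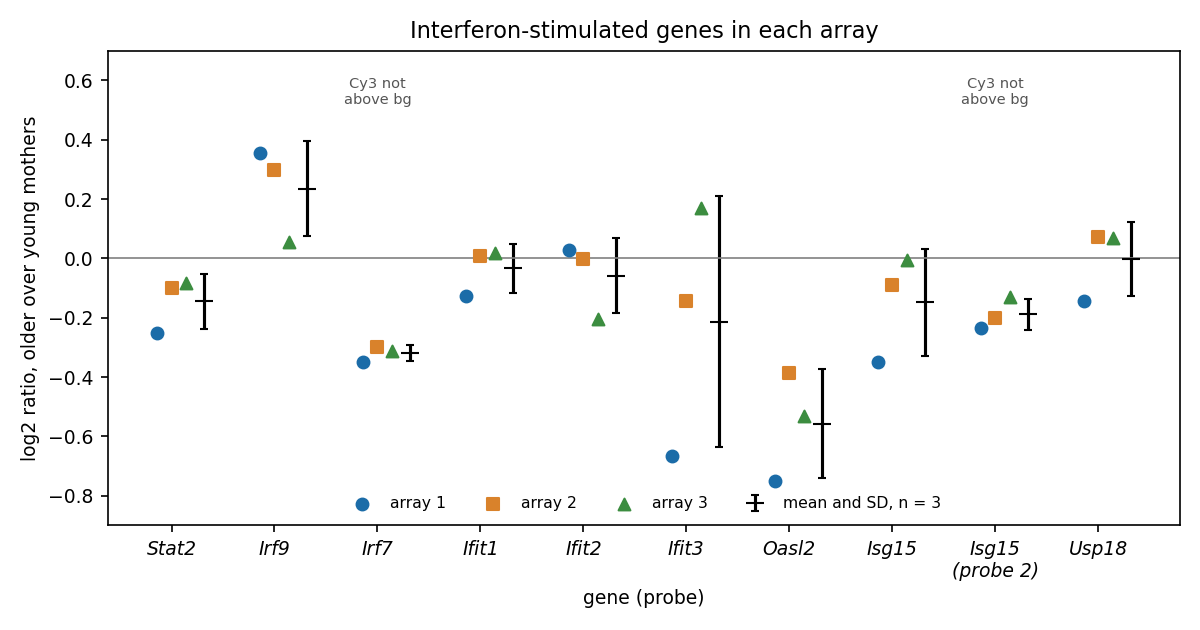
Log2 ratio of older over young mothers (vertical axis) on each of the 3 arrays for the 10 probes of the 9 genes, with the mean and SD of the 3 arrays beside them. Irf7 has the tightest points, from -0.35 to -0.30, Oasl2 the lowest mean at -0.56, and Ifit3 the widest spread, from -0.67 to 0.17.

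The transcription factors came first in the order of the pathway. *Stat2* encodes the STAT protein that is specific to the type I and type III interferon response. Its probe (chr10:127729834-127729893, mm9, the build named in the array files) gave normalized log2 levels of 9.58, 9.67 and 9.84 in the older-mother pools and 9.83, 9.77 and 9.92 in the young-mother pools. The older-mother level was the lower one on every array, but the ranges of the groups overlapped. The log2 ratios were -0.25, -0.10 and -0.08, a mean of -0.14 ± 0.09 (SD, n = 3 arrays), with a limma adjusted p of 0.110.

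*Irf9* encodes the DNA-binding subunit of ISGF3. Its normalized log2 levels were 9.33, 9.27 and 9.28 in the older-mother pools against 8.98, 8.97 and 9.23 in the young-mother pools (probe chr14:56228806-56228865, mm9). All older-mother levels lay above all young-mother levels, a separation that 16.7% of all genes also showed, and the third array had the smallest gap. The log2 ratios were 0.35, 0.30 and 0.055, a mean of 0.24 ± 0.16 (SD, n = 3 arrays), and the limma adjusted p was 0.0697, short of the threshold. The 2 subunits of ISGF3 among the 9 genes thus had mean ratios of opposite sign, and neither passed the test. With median centring in place of loess, *Irf9* had a ratio of -0.21.

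*Irf7* encodes the factor that amplifies interferon transcription once a first wave of interferon has acted. The probe was dim, at the 1.45 percentile of intensity among kept probes, and lies at chr7:148450664-148451014 (mm9, a span longer than the 60-base probe). Raw Cy3 signals over local background were 7.25, 6.71 and 13.4 intensity units and not well above background, and the Cy5 signals were 42.5, 38.6 and 53.8 units. Normalized log2 levels were 6.22, 6.26 and 6.37 in the older-mother pools and 6.57, 6.55 and 6.69 in the young-mother pools. Every older-mother level was below every young-mother level, as for 26% of all genes. The log2 ratios were -0.35, -0.30 and -0.31, a mean of -0.32 ± 0.03 (SD, n = 3 arrays), with a limma adjusted p of 0.0176. At the reported setting the young-mother level was 1.25 times the measured older-mother level. The 95% limma interval of the mean log2 ratio was -0.43 to -0.21. As the older-mother signal was not well above background, this fold is no firm limit and does not carry over to other settings. Median centring turned the *Irf7* ratio to 0.24. The size of the fall in *Irf7* depended on the background step, with a log2 ratio of -0.17 without background correction, -0.55 with an offset of 16 and -0.57 with the processed signals of the scanner software. The limma adjusted p was 0.0712 without array 2 and 0.0602 without array 3, and the gene was not tested under the stricter filter, which asks for signal in both channels.

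**Figure D3:**
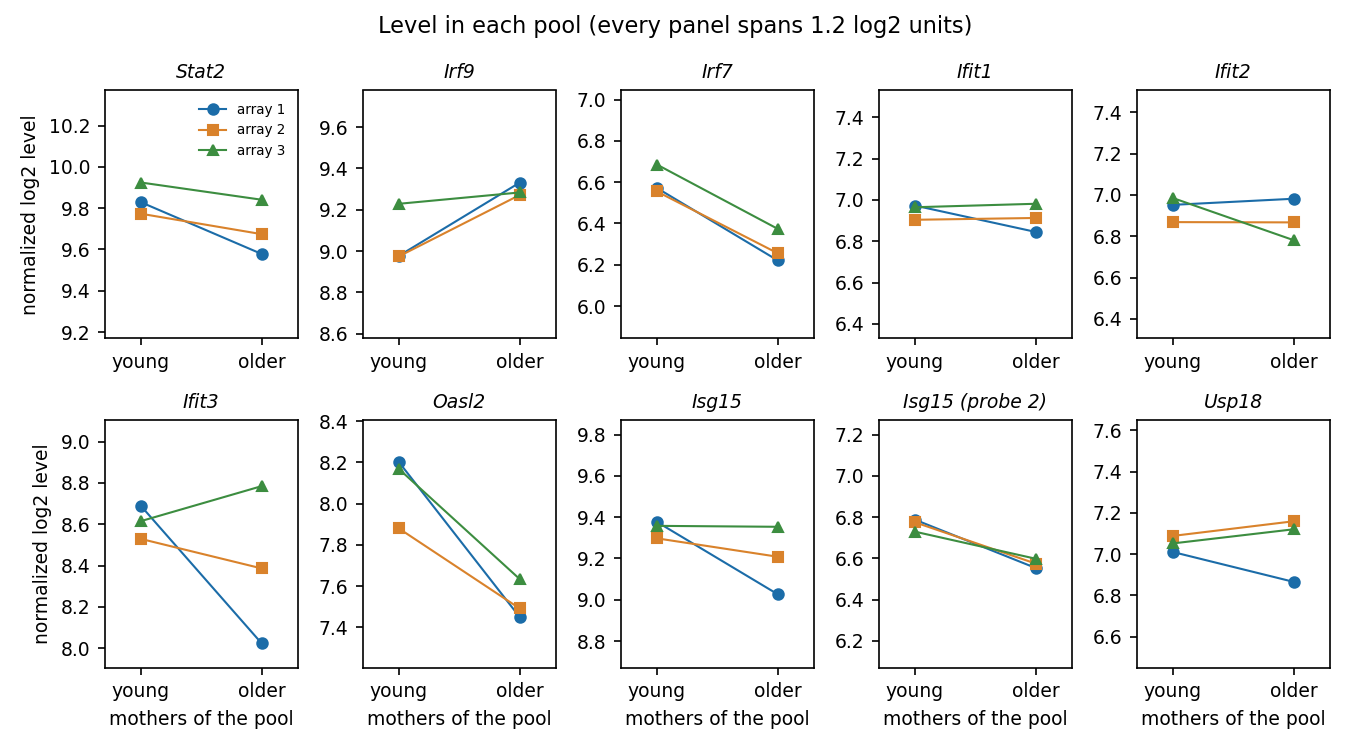
Normalized log2 level (vertical axis) of each of the 10 probes in the young-mother and older-mother pools, with a line joining the pools of an array; levels of different probes are not comparable. The lines of Oasl2, Irf7 and the dimmer Isg15 probe run down on all 3 arrays without overlap of the groups, and those of Irf9 run up. Of all genes, 26% lie lower and 16.7% higher without overlap.

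Among the effector genes, the *Ifit* family did not pass the test and *Oasl2* did. *Ifit1*, *Ifit2* and *Ifit3* encode proteins with tetratricopeptide repeats that bind foreign RNA or assemble on it, and the 3 genes lie in a cluster on chromosome 19. *Ifit1* had log2 ratios of -0.13, 0.0088 and 0.017, with a mean of -0.03 ± 0.08 (SD, n = 3 arrays; limma adjusted p 0.651). *Ifit2* had log2 ratios of 0.03, -0.0014 and -0.20, with a mean of -0.06 ± 0.13 (SD, n = 3 arrays; limma adjusted p 0.514). In both genes the sign changed between arrays and the levels of the groups overlapped. The 95% limma interval of the mean log2 ratio was -0.16 to 0.09 for *Ifit1* and -0.21 to 0.09 for *Ifit2*, so differences within those limits remain possible. Median centring gave 0.18 for each, and their mean signs also turned when single arrays were left out.

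*Ifit3* varied most between arrays. Its normalized log2 levels were 8.02, 8.39 and 8.78 in the older-mother pools and 8.69, 8.53 and 8.62 in the young-mother pools (probe chr19:34663105-34663164, mm9). The young-mother pools lay close together, whereas the older-mother pools spread over a range that enclosed them. The log2 ratios were -0.67, -0.14 and 0.17, a mean of -0.21 ± 0.42 (SD, n = 3 arrays), with a limma adjusted p of 0.350. Without array 1 the mean was 0.013.

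*Oasl2* encodes an oligoadenylate synthetase-like protein with ubiquitin-like domains. The probe, at chr5:115362168-115362227 (mm9), begins tgctctagaatggtaccaatccagtatcaa, and it is the probe with the lowest mean ratio of the 10. Raw Cy3 signals over background were 60.2, 66.3 and 80.2 intensity units and Cy5 signals were 347, 259 and 366 units, and the probe passed the background flag in both channels of every array. Normalized log2 levels were 7.45, 7.49 and 7.63 in the older-mother pools and 8.20, 7.88 and 8.17 in the young-mother pools. The 3 older-mother pools were all below the 3 young-mother pools, with no overlap, as for 26% of all genes. The log2 ratios were -0.75, -0.39 and -0.53, a mean of -0.56 ± 0.18 (SD, n = 3 arrays), with a limma adjusted p of 0.0181 and a 95% interval from -0.75 to -0.37. As a fold, the young-mother level was 1.47 times the older-mother level. In all 11 alternative settings the *Oasl2* ratio stayed below 0, from -0.73 to -0.46, with limma adjusted p between 0.000173 and 0.0604. It missed the threshold with the processed signals of the scanner software, at -0.69 with a limma adjusted p of 0.0580, and without array 3, at -0.57 with 0.0604.

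*Isg15* encodes a ubiquitin-like protein that is joined to other proteins and is also secreted. Its brighter probe lies at chr4:155573649-155573708 (mm9) and begins ggaccagtgtgcctaaggcccccatccaga. Its normalized log2 levels were 9.03, 9.21 and 9.35 in the older-mother pools and 9.38, 9.30 and 9.36 in the young-mother pools. The older-mother level was below its partner on each array, but on the third array the gap was nearly nil and the groups overlapped. The log2 ratios of this probe were -0.35, -0.09 and -0.0046, a mean of -0.15 ± 0.18 (SD, n = 3 arrays), with a limma adjusted p of 0.209.

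The dimmer *Isg15* probe begins tgtagacacgcttaagaagaaggtgtccag and is placed at chr4:155573533-155573552 (mm9), a span shorter than the 60-base probe. Its log2 ratios were -0.23, -0.20 and -0.13, a mean of -0.19 ± 0.05 (SD, n = 3 arrays), with a limma adjusted p of 0.0456. Its groups did not overlap, at 6.55 to 6.60 against 6.73 to 6.79 in log2 level, a separation in this direction that 26% of all genes also showed. The probe was not well above background in the older-mother channel. At the reported setting the young-mother level was 1.14 times the measured older-mother level, a fold that does not carry over to other settings. The 95% limma interval of the mean log2 ratio was -0.30 to -0.07. The log2 ratio was -0.16 in the deposited table, -0.17 without array 1 and 0.20 under median centring. Counting this probe, 3 of 10 probes were called lower, beside 10.7% of all kept probes, and 0 of 10 higher, beside 7.92%. Of these 3, this probe and that of *Irf7* passed the filter through the young-mother channel alone. The pair of *Isg15* probes thus had means of the same sign, -0.15 and -0.19, but differed in the call, in the overlap of the groups and in detection in the older-mother channel. Under median centring their signs differed, at -0.61 for the brighter and 0.20 for the dimmer probe. The call of the dimmer probe was lost in the deposited table, where its limma adjusted p was 0.0797, without the filter on dim probes, where it was 0.0556, and when any array was left out.

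*Usp18* encodes the protease that removes ISG15 from proteins and blocks signalling at IFNAR2. It had normalized log2 levels of 6.87, 7.16 and 7.12 in the older-mother pools and 7.01, 7.09 and 7.05 in the young-mother pools. Only array 1 had the lower level in the older-mother pool. The log2 ratios were -0.14, 0.07 and 0.07, and the 95% limma interval of the mean was -0.15 to 0.15, with a limma adjusted p of 0.986. Median centring gave a ratio of 0.15 for *Usp18*, and Agilent's processed signals gave 0.038.

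In the authors' deposited table of log2 ratios, *Oasl2* had -0.72, -0.37 and -0.46 on arrays 1, 2 and 3 and *Irf7* had -0.37, -0.26 and -0.28. *Irf9* had 0.32, 0.31 and 0.04 there. Ratios of the 10 probes differed from the values above by at most 0.0704.

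**Figure D4:**
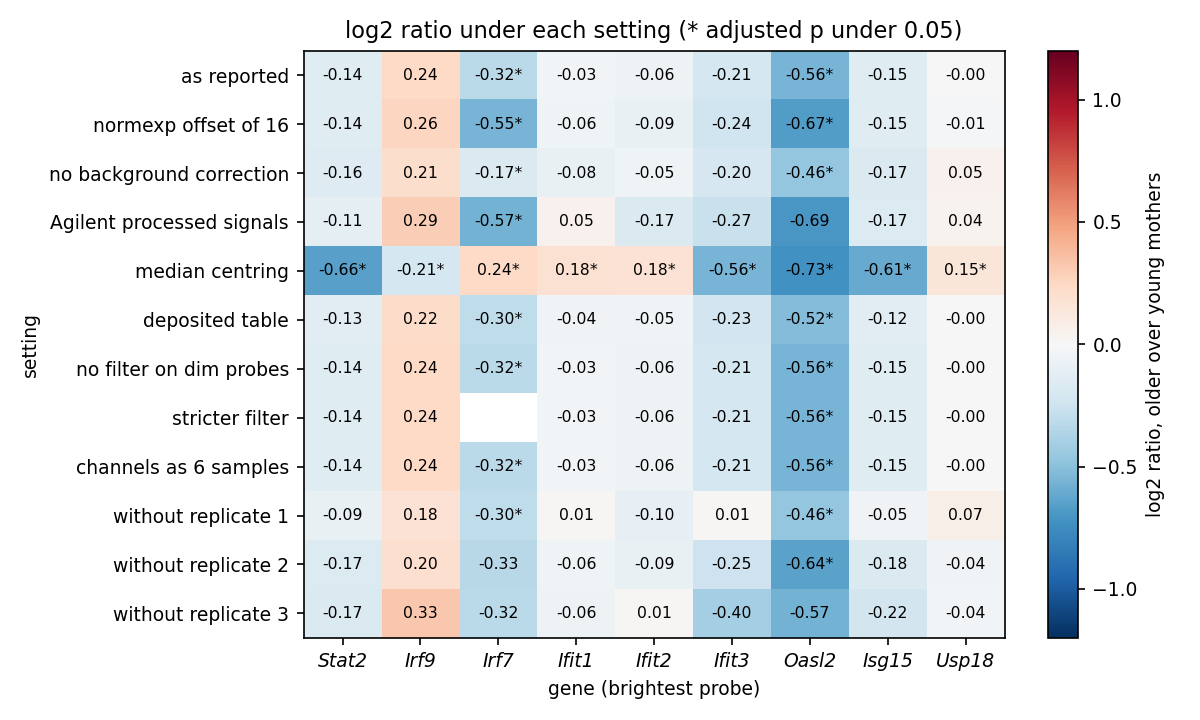
Mean log2 ratio of older over young mothers (colour and printed value) of the 9 genes, in columns, under the reported setting and 11 alternatives, in rows; an asterisk marks an adjusted p under 0.05. Oasl2 stays negative in every row, from -0.73 to -0.46, while the row of median centring departs from the others, with Irf7 at 0.24 and Irf9 at -0.21.

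Upstream of these genes, the 2 receptor chains and the 2 kinases were all measured. Of these 4 genes, 1 fell (25%, beside 12.2% of all genes) and 0 rose (beside 7.34%). *Ifnar2*, which encodes 1 of the receptor chains, had log2 ratios of -0.31, -0.47 and -0.29, a mean of -0.36 ± 0.10 (SD, n = 3 arrays), with a limma adjusted p of 0.0208. Its call was lost with the processed signals and without array 2 or array 3. The other chain, *Ifnar1*, had -0.33, -0.08 and 0.14 on the 3 arrays, and neither of the kinase genes *Jak1* and *Tyk2* passed the test, with means of 0.10 and 0.08, and -0.56 and -0.20 under median centring. No ligand passed. Of 15 type I interferon genes on the arrays, 9 were measured, and limma called 0 higher and 0 lower, beside 7.34% and 12.2% of all genes. At an unadjusted p under 0.05, limma gave 2 of them a lower value, beside 4370 of all 17963 genes. In the older-mother channel, the probes of *Ifna2* and *Ifna13* were above background on 0 arrays and that of *Ifna7* on 2. Of these 9 ligands, 6 were called higher with median centring, and 2 were called lower without background correction and 1 without array 1. Of all 27629 kept probes, median centring called 5995 higher and 17004 lower. Leaving out an array called 0 to 1905 of them lower. *Gm13271*, an interferon zeta gene, had the lowest mean of them at -0.29, with a limma adjusted p of 0.0590. The other 8 ligands were *Ifna1*, *Ifna2*, *Ifna5*, *Ifna7*, *Ifna12*, *Ifna13*, *Ifna14* and *Ifnab*, with means from -0.21 to 0.08. Their probes were dim, with mean log2 intensities of 6.59 to 7.03, beside 6.45 for the *Irf7* probe. Interferon alpha genes are near-identical copies, and whether their probes tell them apart was not tested.

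Of 16 measured genes that sense nucleic acids and induce interferon, 2 were called higher (12.5%, beside 7.34% of all genes) and 1 lower (6.25%, beside 12.2%). *Irf5*, a transcription factor downstream of Toll-like receptors, had a mean log2 ratio of 0.33 ± 0.12 (SD, n = 3 arrays). *Tlr9*, the receptor for unmethylated DNA, had 0.21 ± 0.08, and -0.37 with median centring. *Trim25*, a ubiquitin and ISG15 ligase that acts on the RNA sensor RIG-I, fell, with a mean log2 ratio of -0.49 ± 0.08 (SD, n = 3 arrays) and a limma adjusted p of 0.0144. *Cgas*, the DNA sensor, had -0.16 and was not called. The calls of *Irf5* and *Tlr9* were both lost with the processed signals and without array 2 or array 3. That of *Irf5* was also lost without background correction, at 0.13, and that of *Tlr9* with an offset of 16, in the deposited table, without the filter and without array 1.

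The enzymes that attach ISG15 to proteins gave 2 falls among 3 measured genes, beside 12.2% of all genes. *Uba7*, the activating enzyme for ISG15, had log2 ratios of -0.56, -0.69 and -0.38, a mean of -0.54 ± 0.16 (SD, n = 3 arrays), with a limma adjusted p of 0.0169. *Trim25*, named above, was the other, and *Ube2l6*, the conjugating enzyme, had a mean of -0.0023 ± 0.05 with a limma adjusted p of 0.976, whose sign turned in 5 settings. All 3 *Uba7* and all 3 *Trim25* ratios were below 0. Without array 3, neither gene was called.

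Of 11 negative regulators, 2 were called higher (18.2%, beside 7.34% of all genes), 1 lower (9.09%, beside 12.2%) and 8 neither. *Socs3*, an inhibitor of JAK signalling, rose, with log2 ratios of 0.77, 0.94 and 0.53. *Trex1*, an exonuclease that removes cytosolic DNA, had a mean log2 ratio of 0.37 ± 0.21 (SD, n = 3 arrays) and -0.18 under median centring, where it lay 0.15 over the median probe. *Samhd1*, which degrades deoxynucleotides, fell, with a mean of -0.38 ± 0.05. *Irf2*, a repressor of interferon-responsive genes, had 0.37 ± 0.26 and was not called, and had -0.056 under median centring. In the type II arm, 1 of 6 measured genes was called higher (16.7%) and 2 lower (33.3%), beside 7.34% and 12.2% of all genes: *Ciita*, the master regulator of MHC class II genes, had a mean of 0.31 ± 0.16, *Irf1* had -0.31 ± 0.13 and *Irf8* had -0.22 ± 0.07. *Jak2*, a kinase of the type II receptor, had 0.13 and was not called, and had -0.43 under median centring. The calls of *Trex1*, *Ciita* and *Irf8* were each lost when any array was left out, and those of *Irf1* and *Samhd1* without array 2 or array 3. The call of *Irf8* was also lost with an offset of 16, with the processed signals and in the deposited table. That of *Irf1* was also lost with the processed signals and with channels as separate samples, and that of *Ciita* with an offset of 16. *Trex1* passed the threshold, in either direction, in 5 of the 11 alternatives. *Socs3* lost its call without array 3.

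The other interferon-stimulated genes formed the largest list, with 50 of 59 measured. Of these, 13 fell and 2 rose, which is 26% and 4%, beside 12.2% and 7.34% of all genes, and the median log2 ratio of the 50 was -0.11. *Cxcl10*, among the 13, passed the filter through the young-mother channel, with older-mother signal above background on 1 array only. The stricter filter, which asks for signal in both channels, tested 45 of the 50. Median ratios of this list by array were -0.20, -0.11 and -0.02, so array 1 was the lowest and array 3 nearest 0, as for the 9 genes. *Lgals3bp*, a secreted galectin-binding glycoprotein, fell, with log2 ratios of -0.74, -0.93 and -0.69 and a limma adjusted p of 0.0124. *Ifi27l2a* had a mean log2 ratio of -0.47 ± 0.11, *Ly6e* of -0.44 ± 0.06 and *Sp110* of -0.35 ± 0.08 (SD, n = 3 arrays each). *Shisa5* and *Lgals9* had smaller falls, of -0.29 ± 0.03 and -0.26 ± 0.03. The risers were *Isg20*, an exonuclease gene, at 1.40, 0.64 and 1.04, and *Znfx1*, an RNA helicase gene, at 0.45, 0.58 and 0.53, which had -0.090 under median centring, where it lay 0.24 over the median probe. *Ifi27*, among the brightest of the list, fell, with a mean of -0.28 ± 0.12 (SD, n = 3 arrays) and a limma adjusted p of 0.0336. Its call was lost with an offset of 16, with the processed signals and when any array was left out. *Oas1b*, the brightest, had 0.12 ± 0.08 and was not called, and had -0.59 under median centring. With the processed signals 7 of the 50 fell and 1 rose. Without array 3, 0 of the 50 genes passed the limma threshold in either direction. At an unadjusted p under 0.05, limma gave 3 higher and 21 lower, beside 3599 and 4822 of all 27629 kept probes.

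**Figure D5:**
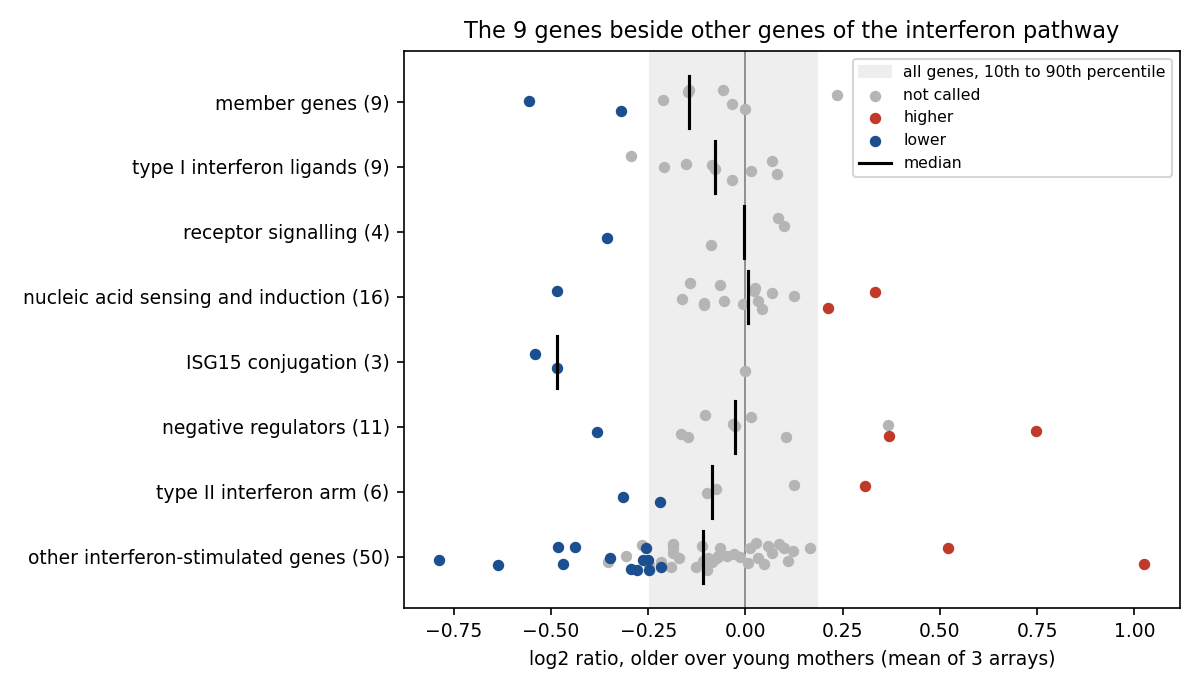
Mean log2 ratio of older over young mothers over 3 arrays (horizontal axis) for each measured gene of the 9 and of the 7 pathway lists (rows); colour shows whether the gene was called higher, lower or neither, black bars are medians and the grey band spans the 10th to 90th percentile of all genes. The other interferon-stimulated genes have 13 falls to 2 rises, with a median of -0.11, and the 9 genes have a median of -0.14.

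Among cell type markers, all 9 listed for hippocampal neurons were measured, with 1 called higher and 1 lower. Several of these mark neurons in general, so their detection does not check the tissue label. The marker counts here and in the next paragraph stand beside 7.34% of all genes called higher and 12.2% called lower. Microglia, a main interferon-responding cell of the brain, had 1 of 12 markers higher and 1 lower, and summed levels of 58974 to 63754 in the older-mother pools against 62170 to 62704 in the young-mother pools. Endothelial markers had 2 of 10 higher and 4 lower, and their median ratio by array was -0.33, -0.20 and -0.0040. Their summed levels overlapped, at 15371 to 18963 against 15531 to 17591.

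Markers of 2 tissues that border the hippocampus included genes called lower in the older-mother pools and none called higher. Choroid plexus markers had 3 of 11 lower and 0 higher, with summed levels of 9659 to 69576 against 79402 to 115915, and median ratios of -0.80, -2.02 and -0.33. That sum is mostly *Ttr*, the transthyretin gene, with log2 levels of 14.45, 12.72 and 15.89 against 16.12, 16.67 and 16.52, and a ratio that did not pass the test. *Kcne2* had log2 ratios of -0.53, 0.34 and 3.18, and each of the other 10 choroid plexus markers was below 0 on all 3 arrays. Leptomeningeal fibroblast markers had 6 of 10 lower and 0 higher, with summed levels of 6907 to 11132 against 9425 to 11607. The choroid plexus median was lowest on array 2. Of blood leukocyte markers, 7 of 11 were measured, with 3 higher and 1 lower, and *Cd3d*, *Ms4a1*, *Ngp* and *Ccr2* were not above background. Of 4 markers of plasmacytoid dendritic cells, which make much interferon, 2 were measured and none was called. The part of these cells in the *Irf7*, *Oasl2* and pathway values was not tested.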

How the data were processed

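The genes and lists were chosen with earlier results of these data known. Per the file headers, the scanner files hold raw spot and background intensity values and processed intensity values (Agilent Feature Extraction 10.10.1.1), log10 ratios of processed Cy5 over Cy3 and other columns of flags, with probe coordinates on mm9. In the deposited table, values are log2 of Cy3 over Cy5. How the authors made it is not given in the sources used here, but normexp and loess on median signals gave the same values within 5.0e-10.

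Here, mean signals were corrected by normexp (offset 50) and loess (span 0.3) with limma 3.58.1 in R 4.3.3. Control, non-uniform and outlier spots had weight 0 in loess, and spots of a probe were averaged. A probe was kept if at least 1 channel was well above background on every array. Log2 ratios were tested against 0 (lmFit, eBayes, two-sided) with Benjamini-Hochberg adjustment over 27629 probes. A gene's value is that of its brightest kept probe, and channel levels were scaled with Aquantile. The fit was tested on simulated data with differences placed in brighter probes only. That test did not cover the intensities of the *Irf7*, *Oasl2* and dimmer *Isg15* probes.

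All 9 genes are named. So are the measured ligand, receptor and conjugation genes, up to 4 genes with the smallest p per other list, up to 8 called and 4 brightest of the other interferon-stimulated genes. Markers not above background, *Ttr*, *Kcne2* and *Cxcl10* were named after their values were seen.

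Median Cy3 signals over background were 58.0 to 62.3 intensity units and Cy5 signals 153 to 165, with 0 spots saturated. The 3 arrays shared 1 slide and 1 scan, so no batch term was possible. The number of arrays limits the precision, and whether pools share litters is not stated, so p-values measure the spread between these pools. A further gene of the pathway is not reported here. Placement of probes in exons or UTRs was not analysed here. Alternatives were an offset of 16, no background correction, processed signals, median centring, the deposited table, no filter, a stricter filter, channels as separate samples and leaving out each array.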

Additional observations from a re-analysis of the deposited data

How the results depend on the processing

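Over the 9 genes and 11 alternatives, 79 values kept their direction and side of the threshold, 12 changed sign, 4 lost the call and 3 gained it. Without median centring, which moved the median of all kept probes from -0.02 to -0.33, the counts were 78, 7, 4 and 0. Each array pairs the pools of equal number, so the ratio is already matched; with channels as 6 separate samples and no replicate block, 2 of the 9 genes were again called lower, with limma adjusted p of 0.0104 for *Oasl2* and 0.0142 for *Irf7*.

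The 9 genes had 1 call lower with Agilent's processed signals (*Irf7* kept it), 1 with the stricter filter, which did not test *Irf7*, 5 with median centring (4 higher) and 0 to 2 without an array, array 3 giving the 0, with 1 higher and 5 lower at an unadjusted p under 0.05. Their median was -0.17 to -0.05 without an array. All probes gave 1169 higher and 1451 lower with processed signals, 5995 and 17004 with median centring, and 29 to 1458 and 0 to 1905 without an array, the lowest again without array 3 (3599 and 4822 unadjusted). The other interferon-stimulated genes gave 1 higher and 7 lower with processed signals, 5 and 31 with median centring, and 0 to 2 and 0 to 6 without an array. The cause was not tested.

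Ratios that changed sign under median centring were *Ifit1* 0.18, *Ifit2* 0.18, *Irf7* 0.24, *Irf9* -0.21, the dimmer *Isg15* probe 0.20, *Usp18* 0.15, *Irf2* -0.056, *Jak1* -0.56, *Jak2* -0.43, *Oas1b* -0.59, *Tlr9* -0.37, *Trex1* -0.18, *Tyk2* -0.20 and *Znfx1* -0.090. Relative to the median of all probes there, *Irf7* was 0.57, *Irf9* 0.12, *Irf2* 0.27, *Trex1* 0.15, *Tyk2* 0.13 and *Znfx1* 0.24 above it, so these last 5 kept their side, while *Tlr9* was -0.04, *Jak1* -0.23, *Jak2* -0.10 and *Oas1b* -0.26 from it. Processed signals gave *Ifit1* 0.047, *Usp18* 0.038 and *Ube2l6* 0.015, no background correction gave *Usp18* 0.049, an offset of 16 gave *Ube2l6* 0.0081, and the deposited table gave *Ube2l6* 0.0041. Leaving out an array gave ranges of -0.059 to 0.013 for *Ifit1*, -0.10 to 0.014 for *Ifit2*, -0.40 to 0.013 for *Ifit3*, -0.038 to 0.070 for *Usp18*, -0.20 to 0.029 for *Ifnar1* and -0.029 to 0.019 for *Ube2l6*. Probes near background in Cy3 limit what *Irf7* and the dimmer *Isg15* probe can show.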
